A study of Mus musculus with 14 samples.

Results

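The transcripts described here are those of fibroblast growth factor (FGF) signalling in mouse embryonic stem cells. They were chosen by symbol: every Fgf ligand except Fgf5, the receptors Fgfr1 to Fgfr4, and 14 genes that ERK signalling is known to induce or that restrain it. This gave 39 of the 37991 gene identifiers measured, namely 21 ligands, 4 receptors, 3 dual-specificity phosphatases, 5 Sprouty or Spred inhibitors, 3 ETS transcription factors and 3 immediate early genes. FGF binds a receptor tyrosine kinase together with heparan sulphate and activates Ras, Raf, MEK and the kinase ERK. ERK then induces immediate early genes, ETS factors and its own inhibitors, which is why transcripts of those inhibitors are widely used as a readout of the pathway. In embryonic stem cells Fgf4 is the best known ligand made by the cells themselves, and blocking MEK is known to hold them in the naive state.

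All libraries were total RNA of C57BL/6 embryonic stem cells with 2 reporters, mCherry for the mir-290 cluster and eGFP for the mir-302 cluster. In experiment B, cells plated sparsely spent 5 days in 1 of 5 media, with 2 libraries each. F/A was the serum-free medium N2B27 to which bFGF (the protein of Fgf2, 12 ng/ml) and activin A (20 ng/ml) were added, so that it differs from FBS/LIF in serum and LIF as well as in both factors. 2i/LIF held inhibitors of MEK and of the kinase GSK3, L-Pro/LIF held L-proline at a dose not given for these samples, VitC/LIF held vitamin C at 500 µM, and FBS/LIF was serum with the cytokine LIF. In experiment A, 4 single libraries came from cells positive for both reporters: L-proline at 1 mM in serum and LIF for 5 days, and F/A for 3 and 5 days, set against day 0 cells, which had vitamin C (100 µM) added to their serum and LIF. Activin A was at 20 ng/ml in the F/A libraries of experiment A, and the dose of bFGF is not given for them. Nothing in the labels says that paired libraries were separate cultures, so p-values measure the spread between libraries, which may be technical. A bulk library cannot tell apart fewer cells of a type and less RNA per cell.

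F/A replicate 1 had 6937945 mapped fragments and the other libraries of experiment B 17778399 to 26354444, and counts per library of experiment A ranged from 33162689 to 39711061. A filter on low counts kept 16033 genes of experiment B, among them 29 of the 39: all 14 feedback and response genes, all 4 receptors and 11 of the 21 ligands. Summed markers of pluripotent cells stood at 843 to 1183 CPM (counts scaled to library size) in F/A, 2737 to 2849 CPM in 2i/LIF, 2083 to 2234 CPM in L-Pro/LIF, 2402 to 2404 CPM in VitC/LIF and 2582 to 2787 CPM in FBS/LIF. Summed mesendoderm markers reached 443 to 468 CPM in F/A, 21.5 to 22.8 CPM in 2i/LIF and 58.7 to 68.7 CPM in L-Pro/LIF, against 4.62 to 5.81 CPM in FBS/LIF. The sums of primitive endoderm markers were 294 to 351 CPM in F/A, 174 to 197 CPM in 2i/LIF and 192 to 197 CPM in L-Pro/LIF, against 168 to 239.6 CPM in FBS/LIF. Most of the sum in 2i/LIF was Lama1, at 168.5 and 150.7 CPM. Over FBS/LIF, 0 of the 10 primitive endoderm markers rose and 4 fell in 2i/LIF (median log2 fold change -1.87), where 12.5% of all genes rose and 17.9% fell. In L-Pro/LIF 1 rose and 1 fell (median 0.04). Fibroblast markers summed to 14.6 to 19.4 CPM in F/A, 5.10 to 5.78 CPM in 2i/LIF and 16.1 to 17.3 CPM in L-Pro/LIF, against 3.75 to 4.11 CPM in FBS/LIF. In F/A over FBS/LIF 7 of 7 mesendoderm, 7 of 9 tested fibroblast and 7 of 10 primitive endoderm markers rose, and 5 of 5 pluripotency markers fell, where 24.4% of all genes rose and 22.0% fell. Summed neuroectoderm markers were 345 to 495 CPM in F/A, 53.6 to 53.9 CPM in 2i/LIF and 308 to 337 CPM in L-Pro/LIF, against 146 to 156 CPM in FBS/LIF (in F/A 1 of 3 tested rose and 1 fell). Trophectoderm markers summed to 14.3 to 18.4 CPM in F/A, 37.2 to 38.1 CPM in 2i/LIF and 32.5 to 33.2 CPM in L-Pro/LIF, against 65.3 to 76.5 CPM in FBS/LIF (in F/A 1 of 5 tested rose and 2 fell). The part of these marker genes in the results below was not tested.

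More of the FGF and ERK genes rose than fell in F/A, and more fell than rose in 2i/LIF, both set against FBS/LIF. A gene was called at an adjusted p under 0.05, with edgeR's quasi-likelihood test and Benjamini-Hochberg adjustment over all genes. In F/A 12 of the 29 kept genes rose and 8 fell, where 24.4% of all genes rose, 22.0% fell and 46.4% were called in either direction. In 2i/LIF 5 rose and 16 fell, where 12.5% of all genes rose, 17.9% fell and 30.4% were called in either direction. In L-Pro/LIF 7 rose and 7 fell, where 13.7% of all genes rose, 10.3% fell and 24.0% were called in either direction. Over the 14 feedback and response genes, all of which passed the filter, the median log2 fold change was 0.59 in F/A, -1.30 in 2i/LIF and 0.38 in L-Pro/LIF, beside 0.05, -0.04 and 0.01 over all genes. These comparisons share the FBS/LIF libraries. Without FBS/LIF replicate 2, 11 rose and 3 fell in F/A, out of 31 genes then kept by the filter. In 2i/LIF 3 rose without FBS/LIF replicate 1 or 2i/LIF replicate 2. In L-Pro/LIF, 3 rose and 3 fell without FBS/LIF replicate 1, 6 rose and 2 fell without FBS/LIF replicate 2, 3 rose and 1 fell without L-Pro/LIF replicate 1, and 4 rose and 2 fell without L-Pro/LIF replicate 2.

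**Figure D1:**
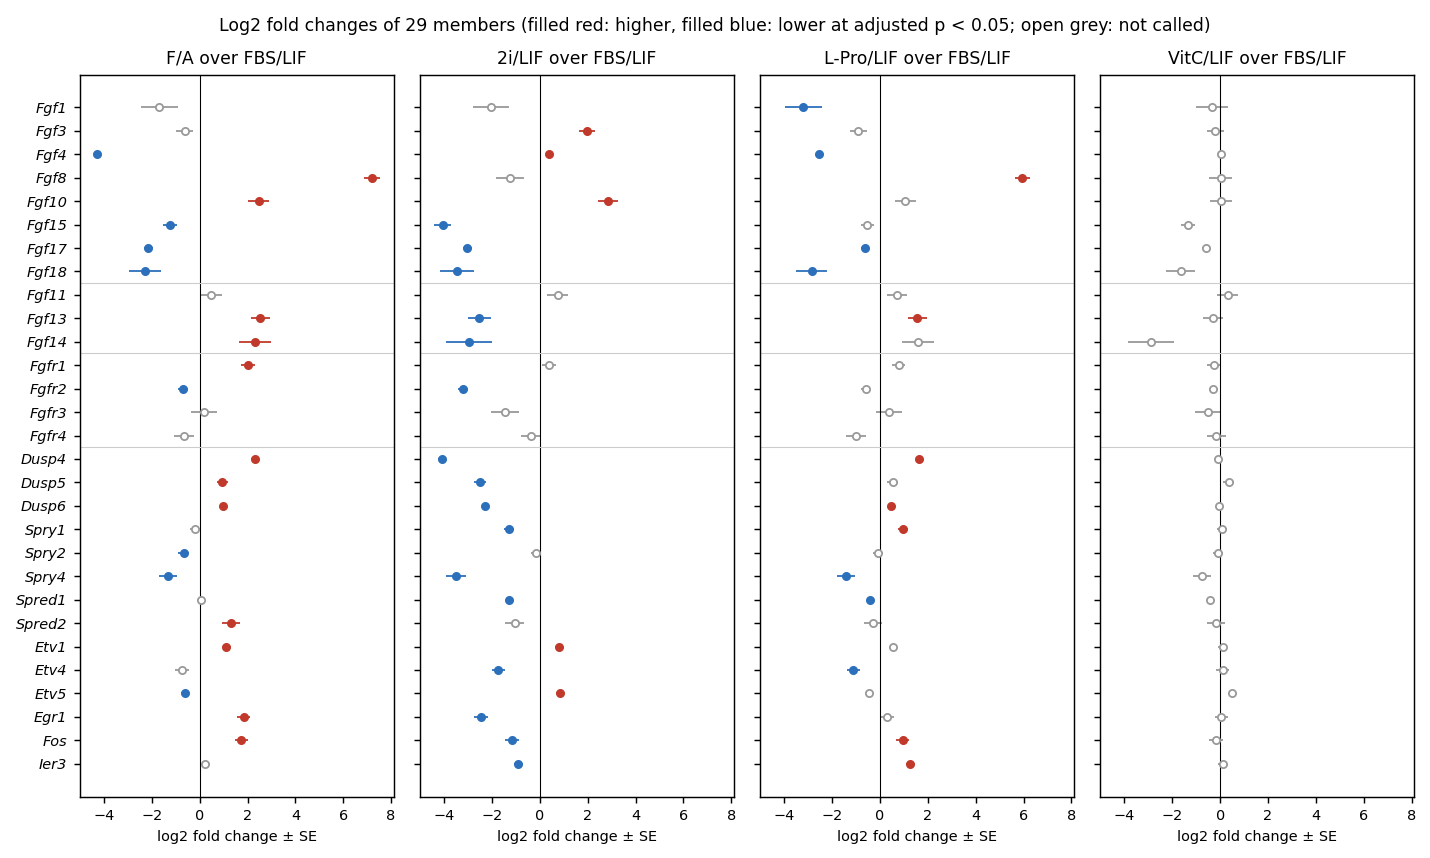
Log2 fold change and its SE (x axis) for the 29 genes kept by the filter (y axis), in F/A, 2i/LIF, L-Pro/LIF and VitC/LIF, each over FBS/LIF, with 2 libraries per medium. Filled points were called, 20, 21, 14 and 0 of them from left to right; the points of Fgf8 in 2i/LIF and of Fgf14 in 2i/LIF and VitC/LIF rest on 2 counts over both libraries.

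Promoters are shown for 4 of the genes: Dusp5 and Dusp6, phosphatases that were lowest in 2i/LIF, Fos, an immediate early gene with the same low point, and Fgf4, which had its highest level there. RefSeq windows of build GRCm38.p6 were matched and searched for 28 of the 39 genes. Each stretch below is the 250 bases before the transcript start on the plus strand, at chr19:53528895-53529144 for Dusp5, chr10:99262981-99263230 for Dusp6, chr12:85473640-85473889 for Fos and chr7:144861136-144861385 for Fgf4, and capitals mark a CArG box, the core that serum response factor binds.
Dusp5: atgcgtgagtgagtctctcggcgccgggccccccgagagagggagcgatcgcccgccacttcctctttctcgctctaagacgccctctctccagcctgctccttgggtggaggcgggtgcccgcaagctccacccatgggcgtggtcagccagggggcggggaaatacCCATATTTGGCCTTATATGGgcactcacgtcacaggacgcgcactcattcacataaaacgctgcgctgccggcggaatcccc
Dusp6: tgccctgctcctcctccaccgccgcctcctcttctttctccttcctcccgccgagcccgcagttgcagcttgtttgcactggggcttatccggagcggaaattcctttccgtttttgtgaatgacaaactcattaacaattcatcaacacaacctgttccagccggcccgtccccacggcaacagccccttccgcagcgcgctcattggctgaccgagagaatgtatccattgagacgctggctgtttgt
Fos: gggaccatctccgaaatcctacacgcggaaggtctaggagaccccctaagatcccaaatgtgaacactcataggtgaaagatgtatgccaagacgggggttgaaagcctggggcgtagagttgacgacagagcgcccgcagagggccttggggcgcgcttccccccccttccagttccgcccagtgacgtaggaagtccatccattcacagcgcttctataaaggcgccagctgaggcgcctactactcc
Fgf4: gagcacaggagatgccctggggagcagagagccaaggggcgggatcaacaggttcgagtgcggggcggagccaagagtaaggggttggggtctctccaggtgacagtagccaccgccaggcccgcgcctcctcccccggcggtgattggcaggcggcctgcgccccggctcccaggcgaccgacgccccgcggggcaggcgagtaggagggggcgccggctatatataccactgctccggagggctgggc

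The search covered both strands for the CArG box, the cyclic AMP response element TGACGTCA, the AP-1 element TGANTCA and the ETS element CCGGAAG. Dusp5 held 2 CArG boxes side by side, CCATATTTGG at 82 to 73 and CCTTATATGG at 72 to 63 bases before the start, each of which reads as a match on both strands. Over the 28 genes searched, Dusp5 was the 1 with a CArG box, Fgf12 and Fgf13 held TGANTCA, and the other motifs had no match. Dusp4, Egr1, Etv4, Fgf1, Fgf8, Fgf15, Fgf16, Fgf17, Fgf20, Fgfr1 and Spry4 were not searched, so this tally says nothing of them. None of the 4 motifs was found in these windows of Dusp6, Fos or Fgf4, which says only that these letters are not in them. Among 32851 promoters of the same length, 1.47% held a CArG box, 1.55% TGACGTCA, 6.75% TGANTCA and 6.91% CCGGAAG. A match describes letters and is no evidence of binding.

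The 3 phosphatases, which remove the activating phosphates from ERK, were ordered alike across media, highest in F/A, next in L-Pro/LIF and lowest in 2i/LIF. Dusp4, which acts in the nucleus, had 70.4 and 78.5 CPM in F/A, 0.742 and 1.01 CPM in 2i/LIF, 46.5 and 48.1 CPM in L-Pro/LIF, 15.0 and 13.6 CPM in VitC/LIF, and 14.4 and 15.8 CPM in FBS/LIF. Its F/A and L-Pro/LIF libraries lay above, and its 2i/LIF libraries below, every VitC/LIF and FBS/LIF library. Over FBS/LIF, Dusp4 rose by 2.30 (SE 0.14, adjusted p = 6.61e-06) in F/A and by 1.64 (SE 0.13, adjusted p = 8.69e-05) in L-Pro/LIF on the log2 scale, and fell by 4.11 (SE 0.17, adjusted p = 2.45e-06) in 2i/LIF. Dusp6, the cytoplasmic ERK phosphatase, had 241 and 276 CPM in F/A, 26.5 and 26.5 CPM in 2i/LIF, 172 and 186 CPM in L-Pro/LIF, 124 and 125 CPM in VitC/LIF, and 130.2 and 131 CPM in FBS/LIF. No medium overlapped another. Dusp6 rose by 0.99 (SE 0.11, adjusted p = 0.000178) in F/A and fell by 2.30 (SE 0.11, adjusted p = 4.81e-06) in 2i/LIF, both over FBS/LIF on the log2 scale. The smaller rise in L-Pro/LIF, of 0.46 (SE 0.11, adjusted p = 0.0149), was lost when any 1 of the L-Pro/LIF or FBS/LIF libraries was left out (adjusted p up to 0.128). Dusp5, a nuclear phosphatase specific to ERK, had 19.3 and 15.2 CPM in F/A, 1.48 and 1.63 CPM in 2i/LIF, 12.3 and 13.2 CPM in L-Pro/LIF, 11.2 and 11.5 CPM in VitC/LIF, and 6.89 and 10.9 CPM in FBS/LIF. Again no medium overlapped another. Dusp5 rose by 0.95 (SE 0.24, adjusted p = 0.0113) in F/A and fell by 2.51 (SE 0.26, adjusted p = 0.000171) in 2i/LIF over FBS/LIF, while its log2 fold change in L-Pro/LIF was 0.52 (SE 0.23, adjusted p = 0.143). The rise in F/A was lost without FBS/LIF replicate 1 or F/A replicate 1 (adjusted p up to 0.0753).

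**Figure D2:**
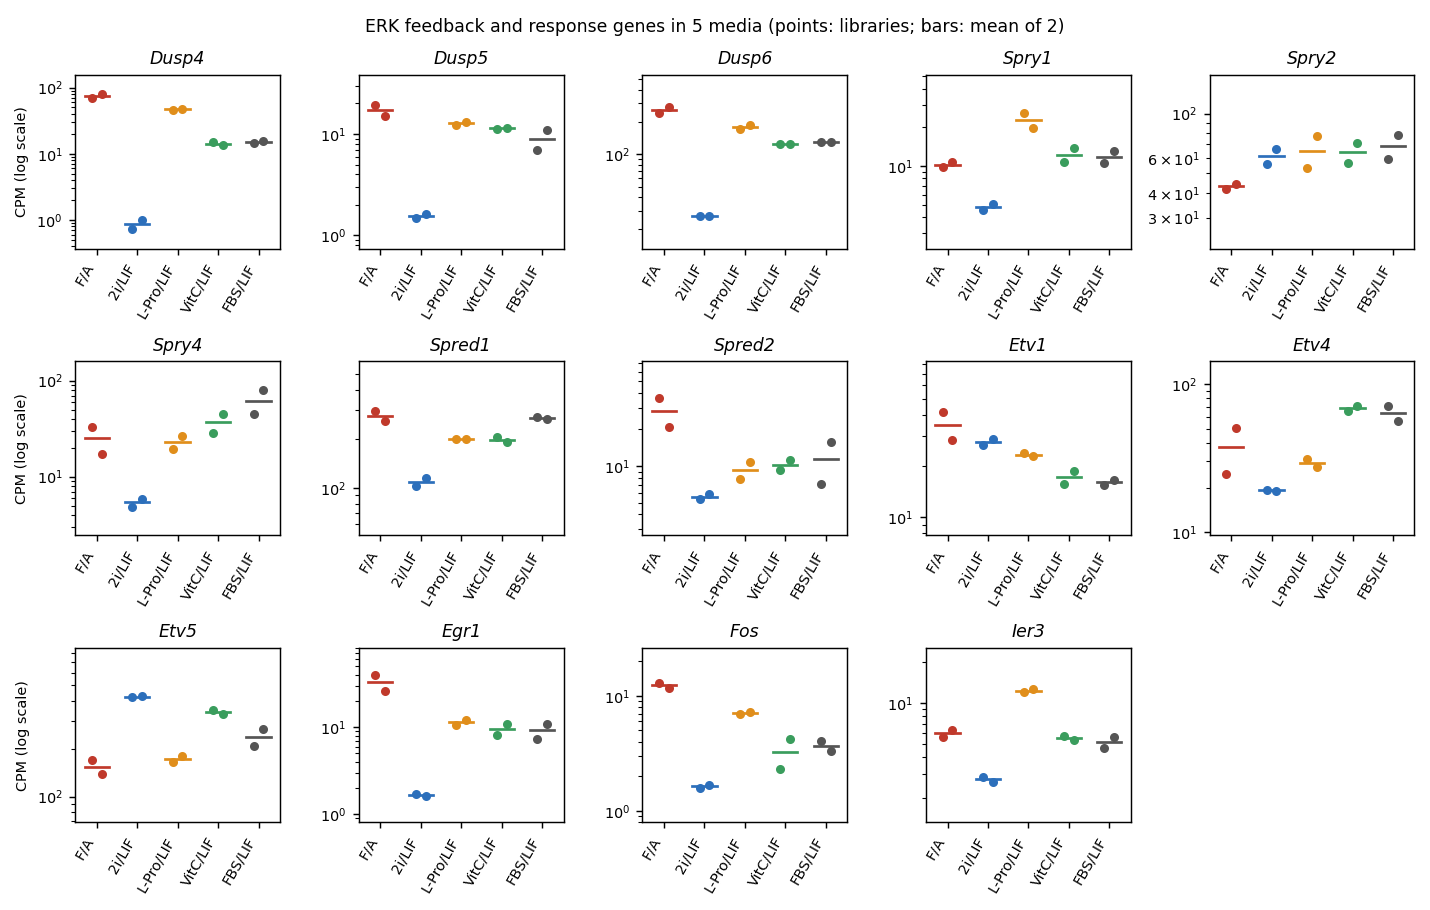
Level in CPM (y axis, log scale) of the 14 ERK feedback and response genes in F/A, 2i/LIF, L-Pro/LIF, VitC/LIF and FBS/LIF (x axis), where points are libraries and bars the mean of 2. In 11 of the 14 panels both 2i/LIF points lie under the 8 others, the exceptions being Etv1, Etv5 and Spry2.

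The immediate early genes encode factors or regulators that appear within minutes of ERK activation, before new protein is made. Egr1, a zinc finger transcription factor, had 40.1 and 26.0 CPM in F/A, 1.70 and 1.63 CPM in 2i/LIF, 10.6 and 12.1 CPM in L-Pro/LIF, 8.06 and 10.8 CPM in VitC/LIF, and 7.40 and 11.0 CPM in FBS/LIF. F/A stood above and 2i/LIF below all other media, which overlapped. Egr1 rose by 1.84 (SE 0.27, adjusted p = 0.00104) in F/A and fell by 2.47 (SE 0.30, adjusted p = 0.000444) in 2i/LIF over FBS/LIF. Fos, a subunit of the AP-1 factor, had 12.9 and 11.8 CPM in F/A, 1.59 and 1.68 CPM in 2i/LIF, 6.93 and 7.27 CPM in L-Pro/LIF, 2.32 and 4.22 CPM in VitC/LIF, and 4.02 and 3.33 CPM in FBS/LIF. Its F/A libraries were the highest and its 2i/LIF libraries the lowest, with L-Pro/LIF between F/A and the rest. On the log2 scale over FBS/LIF, Fos rose by 1.74 (SE 0.28, adjusted p = 0.0016) in F/A and by 0.95 (SE 0.28, adjusted p = 0.0389) in L-Pro/LIF, and fell by 1.17 (SE 0.30, adjusted p = 0.0179) in 2i/LIF. Ier3, an early gene that affects cell survival, had 5.58 and 6.35 CPM in F/A, 2.86 and 2.63 CPM in 2i/LIF, 12.1 and 12.7 CPM in L-Pro/LIF, 5.74 and 5.32 CPM in VitC/LIF, and 4.67 and 5.58 CPM in FBS/LIF. Here L-Pro/LIF rather than F/A was highest: the log2 fold change over FBS/LIF was 1.27 (SE 0.19, adjusted p = 0.00191) in L-Pro/LIF and 0.23 (SE 0.20, adjusted p = 0.368) in F/A. Ier3 fell by 0.90 (SE 0.20, adjusted p = 0.00944) in 2i/LIF.

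These genes also respond to cell handling, and a list of 14 such genes (Jun, Junb, Atf3, Btg2, heat shock genes and others, several of which ERK induces too) was measured beside them. Its summed level was 683 to 749.8 CPM in F/A, 342 to 356 CPM in 2i/LIF, 705 to 756 CPM in L-Pro/LIF, 415 to 449 CPM in VitC/LIF and 460.4 to 509 CPM in FBS/LIF. Over FBS/LIF, 7 of the 14 rose and 1 fell in F/A, 0 rose and 5 fell in 2i/LIF, and 7 rose and 0 fell in L-Pro/LIF. Called in either direction were 57.1%, 35.7% and 50% of the list, against 46.4%, 30.4% and 24.0% of all genes. The pooled shares in F/A and 2i/LIF are near those of all genes, but the calls were mostly in 1 direction. Of all genes, 24.4% rose in F/A, 17.9% fell in 2i/LIF and 13.7% rose in L-Pro/LIF. The median log2 fold change of the list was 0.70 in F/A, -0.76 in 2i/LIF and 1.01 in L-Pro/LIF, beside 0.05, -0.04 and 0.01 over all genes. The part of this list in the changes of Egr1, Fos and Ier3 was not tested. The fall of Fos in 2i/LIF was lost without FBS/LIF replicate 1, 2i/LIF replicate 1 or 2i/LIF replicate 2 (adjusted p up to 0.0983), and its rise in L-Pro/LIF without any 1 of the libraries of those groups (adjusted p up to 0.188). The fall of Ier3 in 2i/LIF was lost without FBS/LIF replicate 2 or 2i/LIF replicate 2 (adjusted p up to 0.0704).

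The Sprouty and Spred proteins restrain Ras and Raf below the receptor, and they did not move as a block. Spry4 had 33.0 and 17.3 CPM in F/A, 4.87 and 5.89 CPM in 2i/LIF, 19.5 and 26.7 CPM in L-Pro/LIF, 28.6 and 45.1 CPM in VitC/LIF, and 44.7 and 79.4 CPM in FBS/LIF. Both 2i/LIF libraries lay far below the others, and the other media overlapped in a chain, with the highest mean in FBS/LIF. Over FBS/LIF it fell by 3.53 (SE 0.42, adjusted p = 0.000351) in 2i/LIF, by 1.42 (SE 0.38, adjusted p = 0.0253) in L-Pro/LIF and by 1.32 (SE 0.38, adjusted p = 0.0209) in F/A. Spry1 had 9.76 and 10.7 CPM in F/A, 4.56 and 5.04 CPM in 2i/LIF, 25.7 and 19.8 CPM in L-Pro/LIF, 10.8 and 13.8 CPM in VitC/LIF, and 10.5 and 13.0 CPM in FBS/LIF. It rose in L-Pro/LIF by 0.95 (SE 0.20, adjusted p = 0.0101) and fell in 2i/LIF by 1.29 (SE 0.21, adjusted p = 0.00209), and its log2 fold change in F/A was -0.19 (SE 0.21, adjusted p = 0.467). Spry2 had 42.0 and 44.3 CPM in F/A, 55.8 and 66.1 CPM in 2i/LIF, 53.3 and 76.7 CPM in L-Pro/LIF, 56.5 and 71.1 CPM in VitC/LIF, and 59.2 and 78.5 CPM in FBS/LIF. Only its F/A libraries lay apart from the others. Spry2 fell by 0.67 (SE 0.21, adjusted p = 0.0303) in F/A, and in 2i/LIF its log2 fold change was -0.17 (SE 0.21, adjusted p = 0.592).

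The Spred members split as well. Spred1, which brings neurofibromin to Ras, had 298 and 256 CPM in F/A, 102 and 115 CPM in 2i/LIF, 201 and 199.8 CPM in L-Pro/LIF, 204 and 191 CPM in VitC/LIF, and 272 and 265 CPM in FBS/LIF. F/A and FBS/LIF overlapped at the top and 2i/LIF was lowest. It fell by 1.30 (SE 0.12, adjusted p = 9.56e-05) in 2i/LIF and by 0.42 (SE 0.12, adjusted p = 0.0341) in L-Pro/LIF, with 0.04 (SE 0.12, adjusted p = 0.781) in F/A. Spred2 had 36.4 and 20.9 CPM in F/A, 5.35 and 5.83 CPM in 2i/LIF, 7.84 and 10.9 CPM in L-Pro/LIF, 9.33 and 11.1 CPM in VitC/LIF, and 7.12 and 15.9 CPM in FBS/LIF. It was highest in F/A, where it rose by 1.31 (SE 0.39, adjusted p = 0.0243), and its log2 fold change in 2i/LIF was -1.04 (SE 0.40, adjusted p = 0.0812). Several of these calls rested on single libraries. In F/A, those of Spry2 (without F/A replicate 1 or FBS/LIF replicate 2, adjusted p up to 0.161), Spry4 (without FBS/LIF replicate 2 or F/A replicate 2, up to 0.118) and Spred2 (without FBS/LIF replicate 1 or F/A replicate 1, up to 0.15) were lost. In L-Pro/LIF, those of Spry1 (without the first library of either medium, adjusted p up to 0.0982), Spry4 (without FBS/LIF replicate 2 or either L-Pro/LIF library, up to 0.15) and Spred1 (without any 1 of the 4 libraries, up to 0.154) were lost.

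The ETS factors Etv1, Etv4 and Etv5 form the PEA3 family, which FGF signalling induces in many embryonic tissues, and each took its own course here. Etv5 had 169 and 138 CPM in F/A, 419.8 and 427 CPM in 2i/LIF, 164 and 181 CPM in L-Pro/LIF, 350.1 and 328 CPM in VitC/LIF, and 209 and 267 CPM in FBS/LIF. Both 2i/LIF libraries were above all others, the reverse of the phosphatases. Over FBS/LIF it rose by 0.83 (SE 0.16, adjusted p = 0.00422) in 2i/LIF and fell by 0.63 (SE 0.16, adjusted p = 0.0112) in F/A, a fall that was lost without FBS/LIF replicate 2 (adjusted p = 0.0665). Etv4 had 24.9 and 50.8 CPM in F/A, 19.3 and 19.0 CPM in 2i/LIF, 31.2 and 27.6 CPM in L-Pro/LIF, 66.0 and 71.0 CPM in VitC/LIF, and 70.8 and 56.5 CPM in FBS/LIF. It was lowest in 2i/LIF and high in both VitC/LIF and FBS/LIF. Etv4 fell by 1.73 (SE 0.28, adjusted p = 0.00212) in 2i/LIF and by 1.11 (SE 0.28, adjusted p = 0.0202) in L-Pro/LIF over FBS/LIF. In L-Pro/LIF the call was lost without FBS/LIF replicate 1 or either L-Pro/LIF library (adjusted p up to 0.126). In F/A, where the 2 libraries differed, the log2 fold change of Etv4 was -0.74 (SE 0.28, adjusted p = 0.0564). Etv1 had 41.5 and 28.4 CPM in F/A, 26.7 and 28.8 CPM in 2i/LIF, 23.8 and 22.8 CPM in L-Pro/LIF, 15.7 and 18.6 CPM in VitC/LIF, and 15.5 and 16.5 CPM in FBS/LIF. It rose by 1.12 (SE 0.18, adjusted p = 0.00154) in F/A and by 0.79 (SE 0.18, adjusted p = 0.0103) in 2i/LIF. The rise in 2i/LIF was lost without FBS/LIF replicate 1 or 2i/LIF replicate 2 (adjusted p up to 0.0615), and 72.1% of the Etv1 counts were fragments that hit no other gene.

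Over the 14 feedback and response genes, both 2i/LIF libraries lay under the 8 others in 11 cases, where 19.5% of all genes did so. The mean was highest in F/A in 8 of the 14 cases, where this held for 33.1% of all genes. Set directly against 2i/LIF, F/A had 11 of the 14 higher and 1, Etv5, lower. Over all 29 kept genes 19 were higher and 3 lower in F/A than in 2i/LIF, where 32.0% of all genes were higher, 26.4% lower and 58.4% called in either direction. Against L-Pro/LIF, F/A had 9 of the 29 higher and 4 lower, where 11.1% of all genes were higher, 10.9% lower and 22.0% called in either direction. Dusp4 (log2 fold change 0.65, SE 0.13, adjusted p = 0.0116), Dusp6 (0.53, SE 0.11, adjusted p = 0.0123) and Egr1 (1.54, SE 0.27, adjusted p = 0.00774) were higher in F/A than in L-Pro/LIF, and Ier3 (-1.05, SE 0.19, adjusted p = 0.00926) and Spry1 (-1.15, SE 0.21, adjusted p = 0.00835) lower. These 5 calls were lost without L-Pro/LIF replicate 1 (largest adjusted p over the libraries left out, 0.0536 to 0.162), where 2 of 31 genes then kept by the filter were called (0 higher, 2 lower), and without L-Pro/LIF replicate 2 there were 4 of 31 (1 higher, 3 lower). Without F/A replicate 1 there were 5 higher and 5 lower.

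Among the ligands of the set, which leaves out Fgf5, Fgf4 gave way to Fgf8 in F/A and in part in L-Pro/LIF. Fgf4, the ligand that embryonic stem cells make themselves, had 8.50 and 9.45 CPM in F/A, 229 and 225 CPM in 2i/LIF, 29.4 and 29.7 CPM in L-Pro/LIF, 180.4 and 175 CPM in VitC/LIF, and 185 and 165 CPM in FBS/LIF. Its libraries in F/A and L-Pro/LIF lay far under all others, and those in 2i/LIF above them. Over FBS/LIF, Fgf4 fell by 4.28 (SE 0.12, adjusted p = 1.31e-07) in F/A and by 2.57 (SE 0.11, adjusted p = 5.32e-06) in L-Pro/LIF. Its rise in 2i/LIF, of 0.37 (SE 0.10, adjusted p = 0.0241), was lost without any 1 of the 4 libraries (adjusted p up to 0.202) and without the filter on low counts (adjusted p = 0.129). Fgf8, a ligand of the primitive streak at gastrulation, had 23.1 and 19.6 CPM in F/A, 0.0530 and 0.0561 CPM in 2i/LIF, 9.77 and 8.34 CPM in L-Pro/LIF, 0.110 and 0.173 CPM in VitC/LIF, and 0.185 and 0.0937 CPM in FBS/LIF. It was near 0 outside F/A and L-Pro/LIF. Fgf8 rose by 7.19 (SE 0.34, adjusted p = 1.66e-06) in F/A and by 5.95 (SE 0.33, adjusted p = 1.47e-05) in L-Pro/LIF over FBS/LIF on the log2 scale. Both values rest on only 4 and 2 counts in FBS/LIF replicates 1 and 2, so the size of the rise is less certain than its SE.

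Fgf17, of the same subfamily as Fgf8, went the other way. It had 4.82 and 6.10 CPM in F/A, 3.02 and 2.91 CPM in 2i/LIF, 16.3 and 15.7 CPM in L-Pro/LIF, 17.7 and 15.0 CPM in VitC/LIF, and 26.1 and 22.7 CPM in FBS/LIF. Both FBS/LIF libraries were above all others and both 2i/LIF libraries below. It fell by 2.14 (SE 0.18, adjusted p = 4.22e-05) in F/A, by 3.04 (SE 0.18, adjusted p = 1.27e-05) in 2i/LIF and by 0.61 (SE 0.17, adjusted p = 0.0281) in L-Pro/LIF, the last being lost without any 1 of the 4 libraries (adjusted p up to 0.195). Fgf15, the mouse counterpart of human FGF19, had 3.55 and 2.05 CPM in F/A, 0.371 and 0.392 CPM in 2i/LIF, 4.27 and 4.70 CPM in L-Pro/LIF, 2.82 and 2.31 CPM in VitC/LIF, and 6.15 and 6.84 CPM in FBS/LIF. It fell by 4.07 (SE 0.35, adjusted p = 6.57e-05) in 2i/LIF and by 1.25 (SE 0.30, adjusted p = 0.00925) in F/A. Fgf3, which signals through the epithelial form of Fgfr2, had 0.634 and 1.00 CPM in F/A, 5.09 and 5.49 CPM in 2i/LIF, 0.780 and 0.632 CPM in L-Pro/LIF, 1.10 and 1.21 CPM in VitC/LIF, and 1.06 and 1.59 CPM in FBS/LIF. It stood out in 2i/LIF alone, where it rose by 1.99 (SE 0.33, adjusted p = 0.00237). Fgf3, Fgf4 and Fgf15 are consecutive genes on chromosome 7 in GRCm38.p6, and in 2i/LIF over FBS/LIF their log2 fold changes were 1.99, 0.37 and -4.07.

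Fgf10, known from limb and lung outgrowth, had 4.31 and 3.50 CPM in F/A, 4.56 and 5.61 CPM in 2i/LIF, 1.15 and 1.78 CPM in L-Pro/LIF, 0.662 and 0.752 CPM in VitC/LIF, and 0.416 and 0.984 CPM in FBS/LIF. It rose both in F/A, by 2.46 (SE 0.43, adjusted p = 0.00236), and in 2i/LIF, by 2.85 (SE 0.43, adjusted p = 0.00133). Fgf13, which is not secreted and binds sodium channels inside the cell, had 19.3 and 10.9 CPM in F/A, 0.212 and 0.673 CPM in 2i/LIF, 6.79 and 8.34 CPM in L-Pro/LIF, 2.04 and 2.08 CPM in VitC/LIF, and 2.22 and 2.91 CPM in FBS/LIF. Its order across media was that of Dusp6, with no overlap between any pair. Fgf13 rose by 2.54 (SE 0.41, adjusted p = 0.00151) in F/A and by 1.56 (SE 0.40, adjusted p = 0.0225) in L-Pro/LIF, a rise lost without any 1 of the 4 libraries (adjusted p up to 0.141), and fell by 2.53 (SE 0.49, adjusted p = 0.00484) in 2i/LIF. Of its counts, 77.7% hit no other gene. Fgf1, Fgf14 and Fgf18 were called in at least 1 comparison but reached at most 2.62, 2.75 and 1.55 CPM in any library of experiment B, and Fgf11 was called in none. The 10 ligands that failed the filter were Fgf2, Fgf6, Fgf7, Fgf9, Fgf12, Fgf16, Fgf20, Fgf21, Fgf22 and Fgf23. They had at most 27 counts in a library of experiment B, reached by Fgf9, and Fgf6 had 0 in all 14 libraries. Fgf2, whose protein was added to F/A, had at most 3 counts.

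Fgf5 is not in the set, so the sums and shares here are not of all secreted FGF ligands. Per transcript length, the 17 secreted ligands of the set (without Fgf11 to Fgf14) summed to 43.2 ± 6.74 FPKM (fragments scaled to transcript length and library size) in F/A, 83.0 ± 0.810 in 2i/LIF, 36.1 ± 3.47 in L-Pro/LIF, 75.4 ± 2.80 in VitC/LIF and 84.4 ± 6.18 FPKM in FBS/LIF (SD, n = 2 each). Unlike CPM, FPKM had no further scaling between libraries. Fgf4 made up 8.34% ± 1.52 of the ligand sum in F/A, 91.6% ± 0.596 in 2i/LIF, 28.9% ± 1.68 in L-Pro/LIF, 80.8% ± 1.38 in VitC/LIF and 71.2% ± 0.209 in FBS/LIF. Fgf8 made up 69.4% ± 2.49 in F/A, 0.114% ± 0.00407 in 2i/LIF and 28.7% ± 3.03 in L-Pro/LIF, against 0.250% ± 0.0730 in FBS/LIF. Fgf17 held 9.80% ± 2.57 in F/A, 2.29% ± 0.0453 in 2i/LIF, 30.0% ± 0.439 in L-Pro/LIF, 14.2% ± 1.27 in VitC/LIF and 19.0% ± 0.553 in FBS/LIF. So 1 ligand gene held most of the sum in F/A (Fgf8) and in 2i/LIF, VitC/LIF and FBS/LIF (Fgf4), and in L-Pro/LIF Fgf4, Fgf8 and Fgf17 had similar shares.

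**Figure D3:**
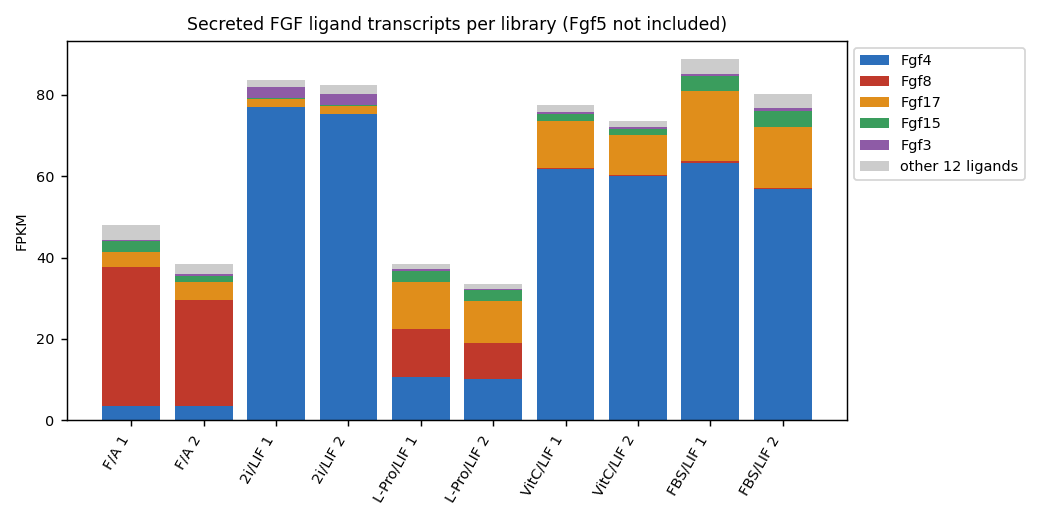
Stacked level in FPKM (y axis) of 17 secreted FGF ligand genes (Fgf5 not included) in each of the 10 libraries of experiment B (x axis), coloured by gene. Fgf8 takes 69.4% of the bar in F/A on average, Fgf4 71.2% in FBS/LIF, and the L-Pro/LIF bars hold Fgf4, Fgf8 and Fgf17 in like parts.

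The balance between the receptors differed between media as well. Fgfr1, the main FGF receptor of the epiblast, had 113 and 60.7 CPM in F/A, 27.2 and 27.8 CPM in 2i/LIF, 31.7 and 40.9 CPM in L-Pro/LIF, 17.4 and 18.0 CPM in VitC/LIF, and 17.8 and 24.5 CPM in FBS/LIF. It was highest in F/A, though the 2 libraries there differed, and rose by 2.03 (SE 0.29, adjusted p = 0.000759) over FBS/LIF. In L-Pro/LIF its log2 fold change was 0.78 (SE 0.28, adjusted p = 0.0773), and in 2i/LIF 0.38 (SE 0.28, adjusted p = 0.361). Fgfr2, known in the blastocyst as the receptor of the primitive endoderm, had 22.4 and 24.6 CPM in F/A, 3.18 and 5.04 CPM in 2i/LIF, 28.2 and 21.9 CPM in L-Pro/LIF, 32.8 and 29.4 CPM in VitC/LIF, and 38.3 and 37.7 CPM in FBS/LIF. It was highest in FBS/LIF and lowest in 2i/LIF, where it fell by 3.21 (SE 0.22, adjusted p = 2.3e-05). Its fall in F/A, by 0.69 (SE 0.20, adjusted p = 0.0216), was lost without F/A replicate 1 or either FBS/LIF library (adjusted p up to 0.0856). In FPKM that fall was smaller, a log2 ratio of the means of -0.20, with 12.4 and 10.0 FPKM in F/A against 12.4 and 13.3 FPKM in FBS/LIF. Scaling between libraries differs between FPKM and CPM as well as length. Most kept genes had a higher log2 ratio of F/A over FBS/LIF in FPKM than in CPM, such as Dusp6 (1.19 against 0.99) and Fgf4 (-4.08 against -4.29). Etv1, Fgf1 and Fgf8 had a lower one. Fgfr3 reached at most 5.10 CPM and Fgfr4 at most 1.20 CPM in a library of experiment B; Fgfr3 was higher in F/A than in 2i/LIF only, a call lost without 2i/LIF replicate 2 or either F/A library (adjusted p up to 0.122). Only 38.6% of the Fgfr4 counts hit no other gene.

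Per length, the 4 receptors summed to 47.6 ± 16.7 FPKM in F/A, 10.1 ± 0.281 in 2i/LIF, 21.1 ± 2.35 in L-Pro/LIF, 17.0 ± 0.599 in VitC/LIF and 20.2 ± 1.60 FPKM in FBS/LIF (SD, n = 2 each). Fgfr1 made up 71.7% ± 5.02 of it in F/A, 78.9% ± 2.53 in 2i/LIF, 52.0% ± 4.00 in L-Pro/LIF, 32.1% ± 0.140 in VitC/LIF and 29.1% ± 3.24 in FBS/LIF. Fgfr2 made up 24.4% ± 5.07 in F/A, 12.0% ± 2.02 in 2i/LIF, 41.2% ± 3.92 in L-Pro/LIF, 61.9% ± 0.549 in VitC/LIF and 63.9% ± 1.80 in FBS/LIF. Fgfr1 thus led in F/A and 2i/LIF and Fgfr2 in VitC/LIF and FBS/LIF, and the shares in L-Pro/LIF lay between.

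**Figure D4:**
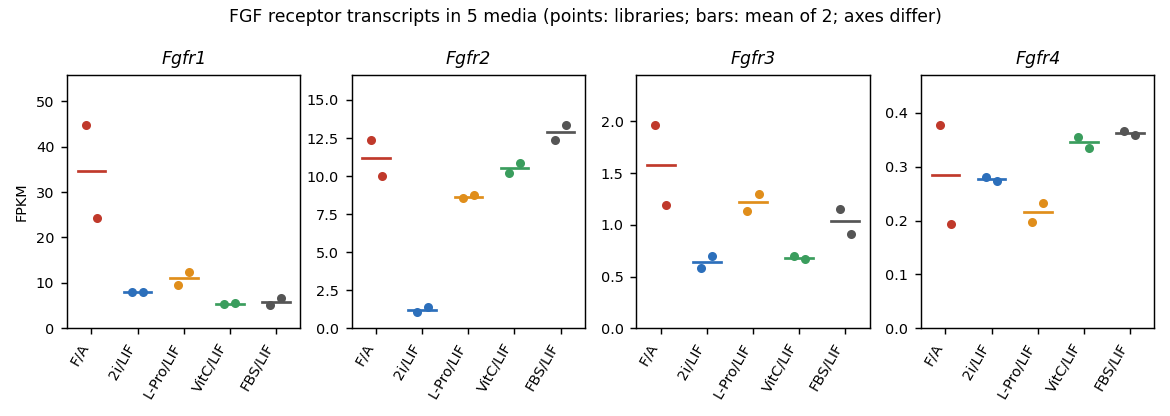
Level in FPKM (y axis, from 0, with a scale of its own in each panel) of the 4 FGF receptor genes in 5 media (x axis), where points are libraries and bars the mean of 2. Fgfr1 averages 34.6 FPKM in F/A against 5.90 FPKM in FBS/LIF, and Fgfr2 averages 1.21 FPKM in 2i/LIF against 12.9 FPKM in FBS/LIF.

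No gene of the set was called with vitamin C. In VitC/LIF over FBS/LIF edgeR called 0 of the 29, where 0.362% of all genes rose, 0.312% fell and 0.674% were called in either direction. At an unadjusted p under 0.05 there were 6 of the 29, of which 5 were lower, and DESeq2 called 3 (Etv5 higher, Spred1 and Fgf15 lower). The log2 fold changes of these were 0.51 (SE 0.16, adjusted p = 0.221) for Etv5, -0.45 (SE 0.12, adjusted p = 0.161) for Spred1 and -1.34 (SE 0.29, adjusted p = 0.0917) for Fgf15 with edgeR. The median over the 14 feedback and response genes was -0.01, as it was over all genes.

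The other genes of the pathway were counted on 3 lists. Of 28 co-receptors and matrix partners of FGF, 16 rose and 2 fell in F/A (median log2 fold change 1.08), 3 rose and 6 fell in 2i/LIF (-0.07), and 13 rose and 0 fell in L-Pro/LIF (0.74), all over FBS/LIF. That is 64.3%, 32.1% and 46.4% of the list, where 46.4%, 30.4% and 24.0% of all genes were called, so that the share in 2i/LIF is near that of all genes. The F/A libraries differed from each other, at 1688 and 1180.5 CPM summed over the list, beside 1049 and 1118 CPM in L-Pro/LIF. Hspg2, the heparan sulphate proteoglycan perlecan, had 508 and 181 CPM in F/A and 148 and 184 CPM in FBS/LIF. It was not called in F/A (adjusted p = 0.0523), and its high value came from F/A replicate 1, the library with the fewest fragments. Gpc6, a glypican that carries heparan sulphate, averaged 28.3 ± 17.7 CPM in F/A against 1.44 ± 0.212 CPM in FBS/LIF (log2 fold change 4.28, SE 0.45, adjusted p = 0.00016). Flrt2, which binds FGF receptors, averaged 8.12 ± 2.50 CPM in F/A against 0.886 ± 0.338 CPM in FBS/LIF (3.17, SE 0.40, adjusted p = 0.00039). Hs6st2, which sulphates heparan chains, fell to 0.329 ± 0.0901 CPM in 2i/LIF against 15.2 ± 2.19 CPM in FBS/LIF (-5.51, SE 0.28, adjusted p = 5.41e-06), and Sulf1, which removes such sulphates, to 12.8 ± 1.70 CPM against 58.3 ± 4.06 CPM (-2.19, SE 0.13, adjusted p = 1.22e-05). Of 28 adaptors and kinases between receptor and ERK, 11 rose and 3 fell in F/A (median 0.28), 2 rose and 2 fell in 2i/LIF (-0.15), and 2 rose and 2 fell in L-Pro/LIF (0.10). The shares called, 50%, 14.3% and 14.3%, were near that of all genes in F/A and below it in 2i/LIF and L-Pro/LIF. Gab1, a docking protein below the receptor, fell to 24.9 ± 8.39 CPM in F/A and 42.3 ± 8.96 CPM in L-Pro/LIF, against 112 ± 36.2 CPM in FBS/LIF (log2 fold changes -2.19 and -1.40, SE 0.31 and 0.29, adjusted p = 0.000743 and 0.0096). Among the 11 of that list that rose in F/A were Nf1, by 2.00 (SE 0.34, adjusted p = 0.0019), and Cbl, by 1.83 (SE 0.38, adjusted p = 0.00545). Map2k1, which encodes the kinase MEK1, rose in 2i/LIF by 0.70 (SE 0.15, adjusted p = 0.00921). Mapk3 of the same list fell there by 0.70 (SE 0.13, adjusted p = 0.00382).

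Other genes known to respond to ERK moved mostly down in 2i/LIF. Of 23 tested out of 26 listed, 12 rose and 3 fell in F/A (median 1.04), 2 rose and 16 fell in 2i/LIF (-1.34), and 6 rose and 0 fell in L-Pro/LIF (0.28). This is 65.2%, 78.3% and 26.1% of those tested, the last near the 24.0% of all genes, beside 46.4% in F/A and 30.4% in 2i/LIF. Bcl2l11, a cell death gene that is known to be repressed by ERK in other cells, fell to 5.30 ± 0.598 CPM in 2i/LIF against 48.6 ± 6.73 CPM in FBS/LIF (log2 fold change -3.19, SE 0.21, adjusted p = 1.86e-05). Fosl2, an AP-1 subunit, fell to 0.433 ± 0.137 CPM against 5.19 ± 0.676 CPM (-3.56, SE 0.29, adjusted p = 4.87e-05). Fosl1, another, had 0 counts in 2i/LIF against 11 in FBS/LIF, which is at least 3.19-fold lower against 3 counts over the group. Epha4, an ephrin receptor, rose to 269 ± 18.7 CPM in 2i/LIF against 19.6 ± 0.500 CPM (3.78, SE 0.13, adjusted p = 1.71e-06). In F/A Spred3 rose to 16.9 ± 2.47 CPM against 4.73 ± 0.342 CPM in FBS/LIF (1.83, SE 0.28, adjusted p = 0.00124).

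Experiment A gives single libraries and so no test; a gene counted as changed at a 2-fold difference with at least 50 counts in the higher library. Ratios carry a 95% interval (Clopper-Pearson) for counting error only. In L-Pro at day 5 over day 0, 11 of 27 genes with enough counts were higher and 3 lower, where 19.9% of all genes were higher, 14.5% lower and 34.4% changed. In F/A at day 3 over day 0, 8 of 28 were higher and 4 lower, where 16.6% of all genes were higher, 12.9% lower and 29.4% changed. By F/A day 5 over day 0, 11 of 26 were higher and 5 lower, where 20.7% of all genes were higher, 15.4% lower and 36.1% changed. Between F/A day 5 and F/A day 3, 5 of 27 were higher and 6 lower, where 9.82% of all genes were higher, 8.62% lower and 18.4% changed.

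The phosphatases differed in their levels over the F/A days, as read from single libraries. Dusp6 had 153 CPM in the L-Pro library, and 46.3, 316 and 246 CPM along the F/A course (day 0, day 3, day 5). It was thus 6.83-fold (6.47 to 7.20) higher at F/A day 3 and 5.32-fold (5.04 to 5.62) higher at F/A day 5 than at day 0. Dusp4 had 71.6 CPM in the L-Pro library, and 1.92, 27.8 and 99.6 CPM along the F/A course (day 0, day 3, day 5). Its ratio to day 0 was 14.5 (11.3 to 18.9) at F/A day 3 and 51.9 (40.6 to 67.4) at F/A day 5, and 37.3 (29.2 to 48.4) in L-Pro. Dusp5 had 38.1 CPM in the L-Pro library, and 13.2, 13.5 and 39.8 CPM along the F/A course, so that only its day 5 value lay apart from day 0. Egr1 had 90.8 CPM in the L-Pro library, and 101, 100.5 and 301 CPM along the F/A course, and Fos 53.7 CPM, and 15.3, 11.2 and 253 CPM. Both were high at F/A day 5 alone of the F/A libraries, Fos 22.6-fold (20.5 to 25.0) above F/A day 3. The summed handling genes were 1233 CPM in the L-Pro library, and 559, 675 and 1468 CPM along the F/A course, and their part in the Fos and Egr1 values was not tested.

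Spry4 fell along the F/A course, with 56.9 CPM in the L-Pro library, and 93.9, 44.1 and 24.9 CPM along the F/A course (day 0, day 3, day 5). Spry2 had 72.9 CPM in the L-Pro library, and 78.4, 134 and 61.4 CPM along the F/A course, a peak at day 3. Etv5 had 291 CPM in the L-Pro library, and 546, 334 and 249.5 CPM along the F/A course, and Etv4 49.5 CPM, and 138, 67.3 and 84.9 CPM. Both were highest at day 0.

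Ligand exchange was also seen over time. Fgf4 had 43.6 CPM in the L-Pro library, and 240.2, 76.4 and 8.69 CPM along the F/A course (day 0, day 3, day 5), a ratio to day 0 of 0.318 (0.304 to 0.332) at day 3 and 0.0362 (0.0320 to 0.0407) at day 5. Fgf8 had 287 counts (7.32 CPM) in the L-Pro library, and 2, 478 and 1411 counts (0.0591, 13.0 and 43.0 CPM) along the F/A course. Against the 2 counts of day 0 its ratio at F/A day 5 was 728 (201 to 6020). Fgf15 peaked at F/A day 3, with 7.07 CPM in the L-Pro library, and 3.22, 32.4 and 2.07 CPM along the F/A course. At day 5 it was at 0.0640 (0.0493 to 0.0817) of its F/A day 3 level. Fgf1 had 5 counts in the L-Pro library, and 60, 111 and 7 counts along the F/A course. Fgf13 had 23.4 CPM in the L-Pro library, and 1.06, 13.4 and 20.0 CPM along the F/A course.

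**Figure D5:**
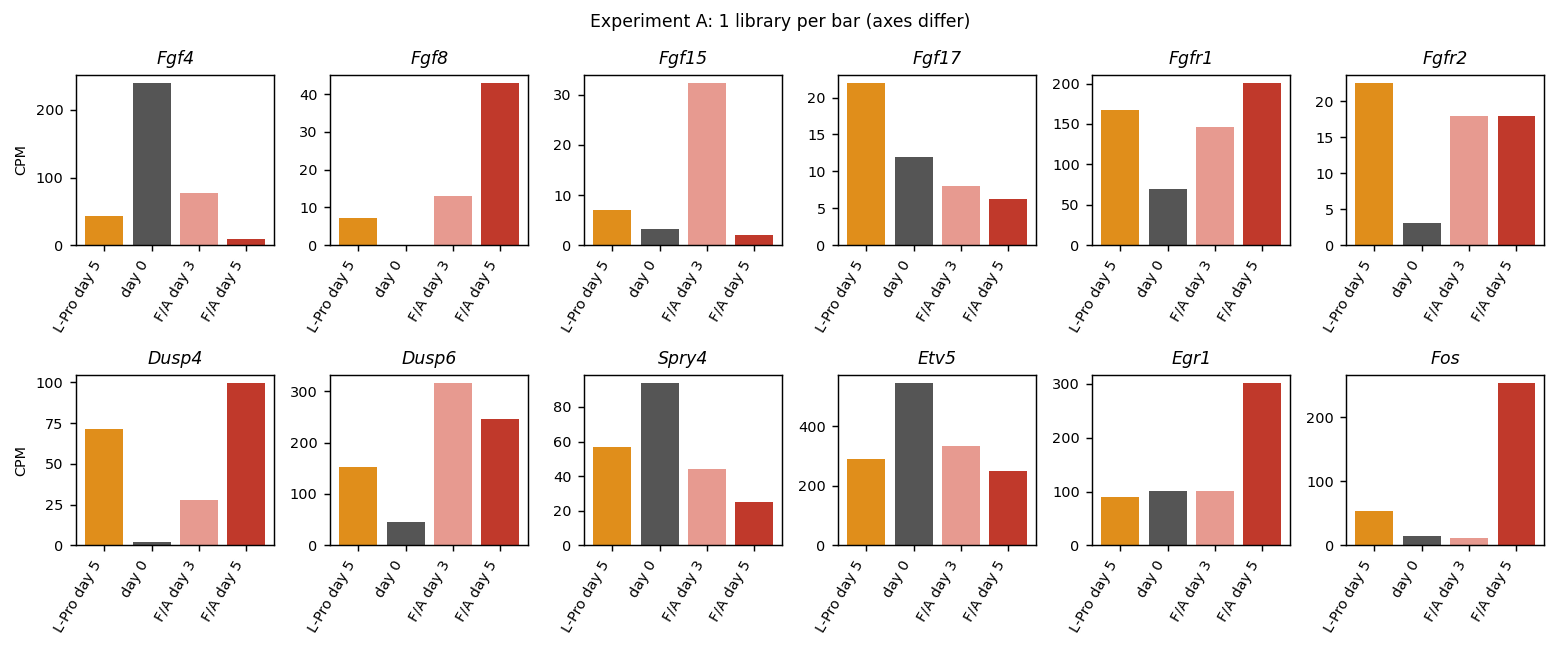
Level in CPM (y axis, from 0, with a scale of its own in each panel) of 12 genes in 4 libraries of experiment A, namely L-Pro day 5 and the F/A course (day 0, day 3, day 5) (x axis), with 1 library per bar and no error. Fgf15 stands at 32.4 CPM at F/A day 3 against 2.07 CPM at F/A day 5, while Fgf8 and Dusp4 climb through both times.

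Of the receptors, Fgfr1 had 167 CPM in the L-Pro library, and 69.2, 147 and 201 CPM along the F/A course (day 0, day 3, day 5), higher than day 0 in all 3, as in F/A of experiment B. Fgfr2 had 22.6 CPM in the L-Pro library, and 3.01, 18.0 and 17.9 CPM along the F/A course. Its ratio to day 0 was 7.50 (6.11 to 9.30) in L-Pro and 5.95 (4.82 to 7.42) at F/A day 5, whereas in experiment B both media lay below FBS/LIF. Summed primitive endoderm markers were 168 CPM in the L-Pro library, and 127, 75.5 and 154 CPM along the F/A course. Most of each sum was Lama1 and Col4a1 together, which moved in opposite directions from day 0. Lama1 had 13.6 CPM in the L-Pro library, and 100.2, 11.4 and 9.42 CPM along the F/A course. Col4a1 had 131.2 CPM in the L-Pro library, and 22.7, 50.2 and 85.9 CPM along the F/A course. The part of the primitive endoderm markers in the Fgfr2 values was not tested. The day 0 cells differed from FBS/LIF cells of experiment B in vitamin C, RNA extraction and the reporter state of the cells. The day (0 against 5) and the processing (deposited raw counts against recomputed estimated counts) differed too. These differences cannot be told apart.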

How the data were processed

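Experiment A is raw counts of Ensembl genes that the authors deposited; the tools named are TopHat2 2.0.13 and HTSeq 0.6.1p1, with mm9, per the submitters' processing notes. For experiment B, per the file headers, the deposited columns hold the natural log of an expression value per effective length and mapped fragments, unique hit counts and effective lengths in bases, in the layout of mmseq. The strand setting is not given in the sources used here. Estimated counts were recomputed from these values and rounded, and FPKM is the exponential of the deposited natural log, without TMM scaling. Symbols came from GENCODE vM21 (32919 identifiers matched).

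Genes of experiment B kept by filterByExpr were scaled by TMM and tested with edgeR 4.0.16 (R 4.3.3), fitting the 10 libraries together by medium without a block, Benjamini-Hochberg adjusted over 16033 genes. Each SE was obtained as the size of the log2 fold change divided by the root of its F. The fit left 5 residual degrees of freedom, and its biological coefficient of variation was 0.238. Experiment A used TMM-scaled counts. Alternatives were RLE scaling, no filter, DESeq2 1.42.0, unique hits, a replicate block, each library left out, total count scaling and a minimum of 10 counts.

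The genes, lists and comparisons were chosen with earlier results of these data known. Values in every library are given for genes called in at least 1 of 6 comparisons with a mean of at least 5 CPM in a medium, which held for 23. From each list up to 4 called genes (by size of change) and 2 uncalled ones (by level) could be named. Combined count tables were not used here.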

Additional observations from a re-analysis of the deposited data

Results flagged for a closer look

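Fgfr2 and Fgf18 are listed because their libraries after 5 days lay above day 0 in experiment A and below FBS/LIF in experiment B. Fgfr2 was 5.95 times its day 0 level at F/A day 5 and 7.50 times in L-Pro in experiment A, while in experiment B its F/A libraries (22.4 and 24.6 CPM) and L-Pro/LIF libraries (28.2 and 21.9 CPM) lay under all VitC/LIF libraries (32.8 and 29.4 CPM) and FBS/LIF libraries (38.3 and 37.7 CPM). In experiment B the log2 fold change of Fgfr2 over FBS/LIF was -0.69 (adjusted p = 0.0216) in F/A and -0.61 (adjusted p = 0.0562, not called) in L-Pro/LIF. Fgf18 was 4.85 times its day 0 level in L-Pro in experiment A, from 73 counts against 13, while in experiment B it had 0.0917 and 0.237 CPM in L-Pro/LIF against 0.971 and 1.55 CPM in FBS/LIF, a call (adjusted p = 0.0132) lost without L-Pro/LIF replicate 1 or FBS/LIF replicate 2 (adjusted p up to 0.106). Neither difference between the experiments was tested, since experiment A has 1 library per group.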

How the results depend on the processing

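Over 162 pairs of a gene and a comparison, 90 were called, none changed direction under any alternative run, and 52 were called in every fit that left out 1 library. DESeq2, RLE scaling and the replicate block each ended 2 of the 90 calls, no filter on low counts ended 5, and counting only fragments that hit 1 gene ended 0. In VitC/LIF over FBS/LIF, 108 of all genes were called, against 263 without the filter, 435 with DESeq2 and 243 from unique hits, and the 0 of 29 FGF and ERK genes became 3 of 29 with DESeq2 and 1 of 28 from unique hits. In experiment A a minimum of 10 counts gave 6153 genes past 2-fold, against 3969, for F/A day 3 over day 0, and 4280, against 2445, for F/A day 5 over F/A day 3.

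Fits without 1 library have fewer degrees of freedom and a lone library in 1 medium, which is assumed to vary like the others. They called 4345 to 8464 of all genes, against 7440, in F/A over FBS/LIF, 2932 to 3298, against 4867, in 2i/LIF over FBS/LIF, and 2002 to 2238, against 3853, in L-Pro/LIF over FBS/LIF. They called 6 to 12, against 108, in VitC/LIF over FBS/LIF and 752 to 6296, against 3529, in F/A over L-Pro/LIF. The filter was rerun in these fits and kept 30 or 31 of the FGF and ERK genes, of which they called 4 to 8, against 14 of 29, in L-Pro/LIF over FBS/LIF (6 when FBS/LIF replicate 1 was left out, 8 for FBS/LIF replicate 2, 4 for L-Pro/LIF replicate 1 and 6 for L-Pro/LIF replicate 2) and 2 to 13, against 13 of 29, in F/A over L-Pro/LIF (2 when L-Pro/LIF replicate 1 was left out and 4 for L-Pro/LIF replicate 2).

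Deviations of same-numbered libraries correlated at -0.0594 to 0.727 (median 0.391) and above 0.1 in 8 of 10 pairs of media. Libraries of like number thus tended to deviate together, which the main fit, without a block, did not take into account. The biological coefficient of variation was 0.238 in the main fit and 0.189 with a block for replicate number. With the replicate block 20, 20, 14, 0, 23 and 13 of the 29 genes were called in F/A, 2i/LIF, L-Pro/LIF and VitC/LIF over FBS/LIF, F/A over 2i/LIF and F/A over L-Pro/LIF. Fgf14 in 2i/LIF over FBS/LIF (adjusted p = 0.0611) and Etv1 in F/A over L-Pro/LIF (adjusted p = 0.0666) were then not called.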

Other observations

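Among ligands that failed the filter in experiment B, 4 held more than 10 counts in a single library of experiment A. Fgf21, a hormone of fasting in the liver, had 31 counts at F/A day 5 against 4 at day 0, a ratio of 8.00 (95% counting interval 2.83 to 31.2). Fgf9 had 19 counts at F/A day 3 against 3 at day 0, a ratio of 5.83 (1.72 to 30.7). Fgf22 had 14 counts at F/A day 3 against 4 at day 0, a ratio of 3.22 (1.01 to 13.4). Fgf7 had 6 counts in L-Pro at day 5 against 32 at day 0, a ratio of 0.162 (0.0554 to 0.393), and 4 counts at F/A day 5. These are counts of single libraries, with no replicate check.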
